A study of Homo sapiens with 12 samples.

Results

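BT-EV cells are BT-549 breast cancer cells that carry the empty vector of the shRNA constructs, and their baseline transcriptome was described here from 4 arrays of the 12 in the series. The cell line is human, established from a breast carcinoma and used by the study as a mesenchymal-like, triple-negative model. The submitters label the transfectant as a control shRNA, the study calls it empty vector, and the stably transfected lines of the study are described as subclones, so that BT-EV may stand for part of the parental culture. The other lines of the series carry shRNAs against ANXA6 and are not analysed here, so no gene was called higher or lower than in another line. Total RNA of cells in complete medium was amplified and hybridised to Affymetrix Human Gene ST arrays. All genes of transcript clusters with a single symbol were taken as members and ranked by their mean log2 signal over the 4 arrays. The transcript cluster of highest mean was kept for each gene. This gave 14884 genes, of which 11916 were protein-coding, from 16098 of the 53617 transcript clusters on the array. Titles number the arrays as biological replicates while the study's text calls them technical, so the SD given below measures the spread between arrays and may be technical. The arrays were close to each other, with Pearson correlations of 0.992 to 0.993 across all transcript clusters and medians of 4.97 to 5.01.

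Epithelial cells of the breast carry keratins, desmosomes and tight junctions and are divided into luminal cells, which use the estrogen receptor and the factors GATA3 and FOXA1, and basal cells, which use KRT5, KRT14 and TP63. In the epithelial to mesenchymal transition, factors of the SNAI, ZEB and TWIST families shut off the epithelial program while vimentin, fibronectin and matrix enzymes come on, and microRNAs of the miR-200 family keep the ZEB factors down in epithelial cells. Triple-negative tumors lack the estrogen and progesterone receptors and amplified ERBB2, and many of them rely on EGFR and other receptor tyrosine kinases. The measurement of ERBB2, TP63, CDH1, CDH2, ACTB and most collagen, integrin, tubulin and proteasome genes is not analysed here.

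A level below means the log2 RMA signal of a gene, averaged over the 4 arrays. Probes differ in how strongly they bind, so a level places a gene in a band and is no measure of the amount of one transcript against another. On each array a silent range was taken from 101 keratin-associated, defensin, bitter taste receptor and late cornified envelope genes. These families are used by hair, skin, secretory tissue and taste cells. The 95th percentile of these genes lay between 7.09 and 7.24 on the 4 arrays. Genes above that limit on all 4 arrays numbered 5388, and 43.3% of the protein-coding genes were among them. Those that were also in the highest 10% of all genes, at a level of 9.48 or more, are called high here, and the others are called middling. High genes made up 12.2% of the protein-coding genes. A further 53.2% of the protein-coding genes stayed at or under the limit on every array and are called within the silent range, and the rest lay on both sides of it and are called borderline. Counts of list members below are to be read against these shares, 43.3% above the limit and 12.2% high. A stricter floor came from 92 probe sets for ERCC control transcripts, which match no human gene, with a 95th percentile of 4.55 to 4.68 per array. On all 4 arrays 13.6% of the protein-coding genes were at or under this ERCC level. Whether ERCC transcripts were added to the RNA is not given in the sources used here.

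**Figure D1:**
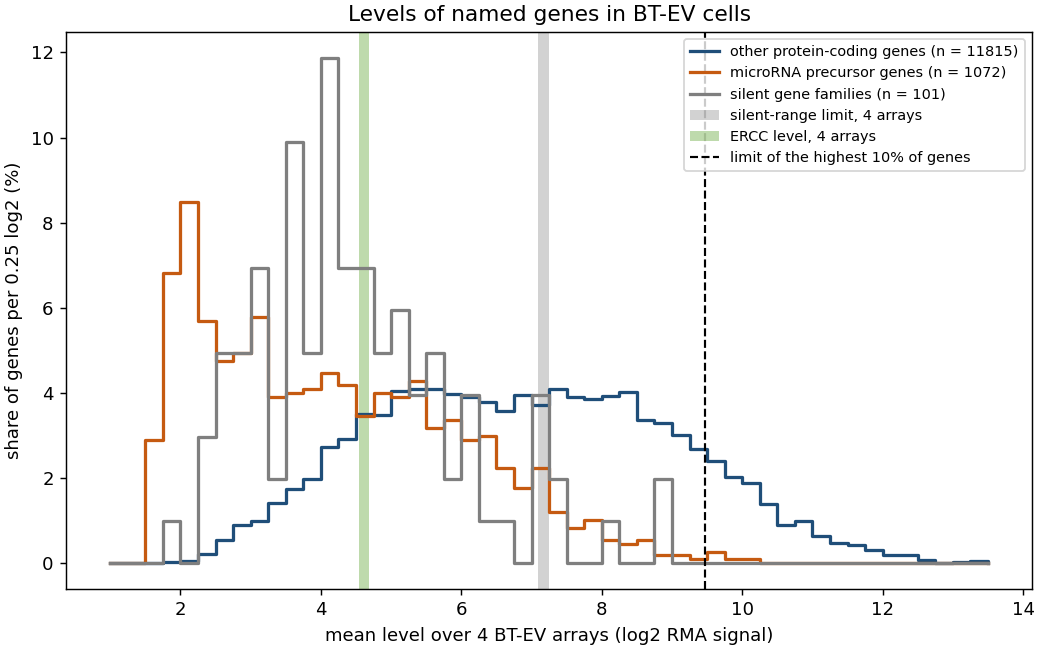
Share of genes (y axis, percent per 0.25 log2 units) by mean level over the 4 BT-EV arrays (x axis, log2 RMA signal) for other protein-coding genes, microRNA precursor genes and the 101 genes of silent families. The grey band marks the silent-range limit of 7.09 to 7.24, the green band the ERCC level of 4.55 to 4.68 and the dashed line the limit of high genes at 9.48, which few microRNA precursors reached.

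Within the silent range does not mean that a transcript is absent. EEF1A1, the translation elongation factor that every cell uses, had 6.90, 6.94, 6.96 and 7.04 on the 4 arrays. CFL1, the actin-severing protein cofilin, was at 6.29 ± 0.05 (SD, n = 4) and S100A6, a calcium-binding protein, at 5.75 ± 0.12. Both genes are widely used by cultured cells and were placed within the silent range on every array. The limit is a percentile of the 101 silent-family genes, so a few of them lie above it by definition. The 4 that did so on every array were KRTAP5-7 at 8.94, KRTAP2-3 at 8.87, LCE2A at 8.07 and LCE3B at 7.33. The background also moved with base composition. In 23 sets of antigenomic probes, which match no human sequence and are 25 bases long, the signal was 1.57 at 3 G or C bases and 8.87 at 23, and it first passed 7.24 between 18 and 19 such bases. The base composition of each gene's own probes was not used here, and its part in the bands was not tested.

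TMSB10, a thymosin that holds actin monomers, came first with 13.43, 13.55, 13.44 and 13.50 on the 4 arrays. RPL10 of the large ribosomal subunit followed at 13.35 ± 0.02 (SD, n = 4). SCD, the desaturase that makes oleic acid, was at 13.32 ± 0.03, and the small heat shock protein HSPB1 at 13.32 ± 0.03. RPS28 of the small ribosomal subunit was at 13.30 and CALR, the calcium-binding chaperone of the endoplasmic reticulum, at 13.28. EEF2, which moves the ribosome along the message, was at 13.18. OAZ1, which limits polyamine synthesis, and PFN1, the actin-binding protein profilin, were at 13.03 and 13.01. COX6A1 and COX4I1, subunits of cytochrome c oxidase, were at 13.02 and 12.73. The SD of each of these genes was below the 95th percentile of 0.13 for genes above the silent range. SCD and COX6A1 each had a second transcript cluster, at 8.68 and 4.46, which the choice of the highest one left out.

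The following 19 genes, from ranks 11 to 30 without COX4I1, lay between 12.40 and 12.98. RPL41, whose other transcript clusters ran down to 7.44, and RPL8 are ribosomal, and PTBP1 and YBX1 bind RNA. LAPTM4A and TM9SF2 sit in membranes of the endosome and Golgi, and PRKCSH, DAD1, PPIB and SELENOF work on proteins in the endoplasmic reticulum. PSENEN and APP, a subunit of the gamma-secretase and one of its substrates, were at 12.73 and 12.48. RHOA, the GTPase that drives stress fibers, was at 12.68. POMP, which helps assemble the proteasome, was at 12.68, PRDX1, a peroxide scavenger, at 12.49 and SRM, which makes spermidine, at 12.43. PLK1, the kinase that takes cells into mitosis, had 12.43, 12.53, 12.51 and 12.48 and was the proliferation gene of highest rank. C19orf53 was at 12.74 and the annexin pseudogene ANXA2P2 at 12.40.

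Mesenchymal markers were well represented. Of 26 measured members 19 were above the silent range, 13 of them high, and their median level was 9.47, against 6.84 for all protein-coding genes. FN1, the matrix protein fibronectin, had 12.28, 12.38, 12.37 and 12.37 on the 4 arrays. ANXA1, an annexin of the plasma membrane, was at 12.37 ± 0.03 (SD, n = 4) and LOX, the enzyme that crosslinks collagen and elastin, at 12.29 ± 0.05. MSN, which ties actin to the membrane, was at 12.24, EMP3, a small membrane protein, at 11.93 and TIMP1, an inhibitor of metalloproteinases, at 11.83. VIM, the intermediate filament protein of mesenchymal cells, had 10.60, 10.66, 10.65 and 10.63 by its highest transcript cluster. Its other transcript clusters were at 9.51 and 9.39 with SDs of 0.65 and 0.52, all above the silent range by their means. The collagen receptor DDR2 was at 10.43 and the hyaluronan receptor CD44 at 9.90. The middling members included the homeobox factor PRRX1 at 9.03 and the surface protein THY1, whose arrays lay between 8.93 and 9.12.

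The 7 mesenchymal markers within the silent range were TAGLN at 6.90, IFITM3 at 6.86, CALD1 at 6.71, NID1 at 6.63, S100A4 at 6.48, ENG at 5.25 and TIMP3 at 4.51. TAGLN and CALD1 are actin-binding proteins of smooth muscle, and ENG is a TGF beta coreceptor of endothelium. None of the 26 was at or under the ERCC level on all 4 arrays.

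Among the transcription factors of the transition, 16 of 32 were above the silent range, or 50%, near the 43.3% of all protein-coding genes, and 10 were high, or 31.25%, against 12.2%. SNAI2, the zinc finger repressor Slug, stood out within the list with 12.18, 12.16, 12.22 and 12.21 on the 4 arrays. HMGA1, a chromatin protein, was at 10.35, SIX2 and TBX18, factors of embryonic mesenchyme, at 10.22 and 10.10, and FOSL1, a partner in the AP-1 complex, at 10.19. ETS1, TEAD1, TCF3, TBX3 and TCF4 were also high, between 9.48 and 9.89. ZEB1 was middling, with 7.65, 7.59, 7.69 and 7.68. Its relative ZEB2 was within the silent range at 6.51 ± 0.07 (SD, n = 4), as were TWIST1 at 6.38 ± 0.05 and SNAI1 at 5.59 ± 0.15. At this limit SNAI2 and ZEB1 were thus above it and SNAI1, SNAI3, ZEB2, TWIST1 and TWIST2 under it. Apart from SNAI2, these bands turned with the limit: ZEB1 changed band at the 99th percentile of the silent families, ZEB2, TWIST1 and TWIST2 at the 90th, and SNAI1 and SNAI3 at the ERCC level.

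Luminal markers were almost all within the silent range, with 21 of 24 there, 1 borderline and 2 above it, and a median of 5.39. ESR1, the estrogen receptor, had 5.02, 5.13, 4.81 and 5.15, and PGR, the progesterone receptor, 4.12, 3.77, 3.98 and 3.96. All arrays of both genes lay under the silent-range limit, and those of PGR lay under the ERCC level as well. GATA3 was at 5.85 ± 0.05 (SD, n = 4), FOXA1 at 4.74 ± 0.20 and SPDEF, a factor of secretory epithelium, at 6.12. KRT8 and KRT19, keratins of simple epithelium, were at 6.21 and 5.40. KRT18 was borderline at 7.10, but its 2 transcript clusters disagreed, the other being at 4.94. AGR3, a disulfide isomerase of estrogen receptor-positive tumors, was at 2.26, near the bottom of the ranking. The exceptions were XBP1, a factor of secretory stress that other cells use too, at 9.60, and MLPH, a melanosome transport protein, at 7.71.

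Basal and myoepithelial markers were above the silent range in 4 of 15 cases. EGFR was the high member, with 10.57, 10.64, 10.77 and 10.73 on the 4 arrays. OXTR, the oxytocin receptor, was at 8.92, the membrane peptidase MME at 8.18 and the myosin kinase MYLK at 7.46. The keratins that define the basal layer were low, with KRT5 at 4.03 ± 0.06 (SD, n = 4), KRT14 at 4.63 ± 0.08 and KRT15 at 4.71. The desmosomal cadherins DSG3 and DSC3 were at 3.89 and 3.19, at or under the ERCC level. Of all 47 keratin genes only KRT80 was above the silent range on every array, with 8.42, 8.68, 8.50 and 8.59.

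Junction and polarity genes followed the same split, with 3 of 29 above the silent range and a median of 5.72. TJP1, the tight junction scaffold, was high at 9.99 ± 0.05 (SD, n = 4) and CLDN1 at 9.54 ± 0.07. CLDN1 was the only gene of 24 claudins above the limit on every array. DSG2, the desmosomal cadherin found in most epithelia, was middling at 8.13. EPCAM, the epithelial adhesion molecule, had 3.32, 3.61, 3.37 and 3.59, and all its arrays lay under the ERCC level. DSP, the core protein of desmosomes, was at 4.65, CLDN7 at 6.06, CLDN4 at 5.56 and OCLN, or occludin, at 6.21. Of 15 epithelial transcription and splicing factors only TFAP2C, a factor of trophoblast and breast, was above the limit, at 7.85. GRHL2, which maintains epithelial junctions, was at 4.59 and ESRP1, which sets epithelial splicing, at 4.01. Surface proteins used to sort breast progenitor cells were above the limit in 6 of 14 cases, or 42.9%, near the 43.3% of all protein-coding genes. CD44 was the only high member at 9.90 and CD24 was middling at 7.80, while PROM1 was at 4.50 and KIT at 3.36.

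**Figure D2:**
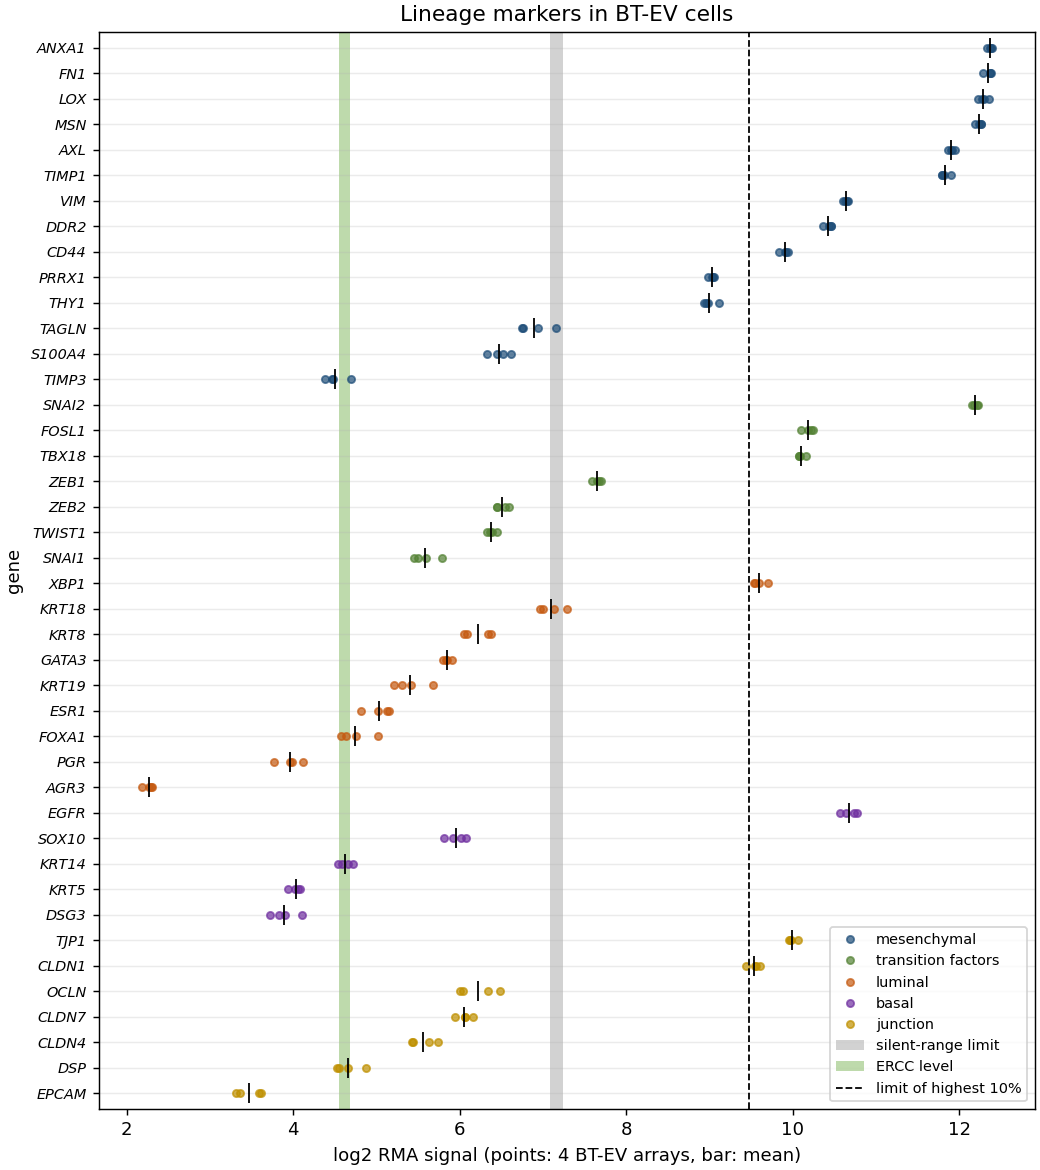
Levels of lineage markers (rows) on each of the 4 BT-EV arrays (points, log2 RMA signal on the x axis) with their means (black bars). Mesenchymal markers such as FN1 and LOX sit above 12 and SNAI2 beside them, while TAGLN, S100A4, TIMP3, ZEB2, TWIST1 and SNAI1 lie within the silent range. PGR, KRT5 and EPCAM, among the lowest luminal, basal and junction markers shown, sit at 3.32 to 4.12 on every array. KRT8, GATA3, OCLN and CLDN7 lie higher within the silent range, and KRT18 is borderline. EGFR, TJP1, CLDN1 and XBP1 are the luminal, basal and junction members with means past 9.48.

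Measured matrix genes lay in every band. Interstitial matrix glycoproteins were above the silent range in 16 of 37 cases, close to the 43.3% of all protein-coding genes, but 9 of them were high, or 24.3% against 12.2%. FN1 was followed by THBS1 and THBS2, thrombospondins that restrain vessel growth, at 12.04 ± 0.12 (SD, n = 4) and 11.83. THBS1 had 11.86 on the first array and 12.07 to 12.12 on the others. The insulin-like growth factor binding proteins IGFBP5, IGFBP3 and IGFBP7 were at 11.54, 10.79 and 10.66 and CCN2, a matricellular growth factor, at 11.36. TNC, the wound matrix protein tenascin C, was high as well. SPP1, or osteopontin, was at 4.82 and SPARCL1 at 3.47. Basement membrane genes were above the limit in 2 of 7 cases, NTN4 at 10.27 and AGRN at 7.45.

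Enzymes that modify and crosslink collagen were above the silent range in 10 of 14 cases, with a median of 10.51. Besides LOX, LOXL2 was at 12.33 ± 0.05 (SD, n = 4) and LOXL1 at 10.44, while LOXL3 and LOXL4 of the same family were within the silent range at 6.07 and 5.82. CRTAP, P3H1 and PPIB, which form the prolyl 3-hydroxylase complex, were at 12.18, 10.70 and 12.45, and COLGALT1, which adds sugar to collagen, at 12.10. Elastic fiber genes were above the limit in 10 of 20 cases, or 50%, near the 43.3% of all protein-coding genes. EFEMP1 led them after LOX at 12.13, FBN1, the fibrillin of microfibrils, was at 9.54 and ELN, elastin itself, at 5.77.

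Proteoglycans were above the limit in 10 of 34 cases. SDC4, a syndecan of focal adhesions, had 11.20, 11.25, 11.07 and 11.19, GPC6, a glypican, was at 10.98 and SRGN, the granule proteoglycan, at 10.63. HAS2, which makes hyaluronan, was at 9.63. The small leucine-rich proteoglycans of connective tissue fibroblasts were low, with DCN at 3.59 ± 0.09 (SD, n = 4), LUM at 4.14 ± 0.17 and OGN at 3.14, and VCAN, the large proteoglycan versican, was at 3.85. All arrays of these 4 genes lay under the ERCC level.

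Of 19 matrix metalloproteinases 4 were above the silent range. MMP14, the membrane-bound collagenase that activates others, had 10.38, 10.46, 10.34 and 10.43, and MMP16, another membrane type, was at 9.80. MMP1, the interstitial collagenase, was middling at 8.52 ± 0.14 (SD, n = 4) and MMP15 at 7.77. The secreted MMP10, MMP12 and MMP13 were at 2.91, 3.19 and 3.21. Inhibitors and other proteases were above the limit in 10 of 21 cases, or 47.6%, near the 43.3% of all protein-coding genes. They were led by the cathepsin CTSD at 12.39 and by TIMP1, CST3 and CSTB at 11.83, 11.54 and 11.40. TIMP2 was at 10.38, and TIMP4 and TIMP3 were at 5.69 and 4.51.

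Focal adhesion and actin genes were above the silent range in 25 of 33 cases and high in 13. VCL, or vinculin, was at 10.83, LASP1 at 10.47, ZYX, or zyxin, at 10.05 and TLN1, or talin, at 9.88. PXN, the adaptor paxillin, and PTK2, the focal adhesion kinase, were middling at 9.33 and 8.13. TLN2, the second talin, and TNS1, a tensin, were within the silent range at 5.85 and 4.94, while the related TNS3 was middling at 9.05.

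Receptor tyrosine kinases outside the EGF receptor family were above the silent range in 12 of 37 cases, and 6 were high. AXL, the receptor for GAS6, had 11.86, 11.91, 11.91 and 11.95, and its ligand GAS6 and the related PROS1 were at 8.88 and 9.48. MET, the receptor for hepatocyte growth factor, had 10.87, 10.95, 11.09 and 11.05, while the ligand gene HGF was at 3.73. RYK, a Wnt receptor, was at 10.52, and the ephrin receptors EPHA2 and EPHB4 were at 9.74 and 9.53. IGF1R was middling at 8.55. The fibroblast growth factor receptors FGFR1, FGFR2, FGFR3 and FGFR4 were all within the silent range, between 4.97 and 6.44. Of these receptors FGFR1 and FGFR3 changed band at the 90th percentile of the silent families, and FGFR2 and FGFR4 at the ERCC level. Their ligands FGF2 and FGF5 were high, with FGF2 at 11.90, 11.87, 11.89 and 11.84 and FGF5 at 10.26 on average. The endothelial receptors KDR and FLT1 were at 4.66 and 4.35, and their ligands VEGFB, VEGFC and VEGFA at 9.33, 7.80 and 7.34.

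In the EGF receptor family EGFR was high while ERBB3 and ERBB4 were within the silent range at 4.93 ± 0.03 (SD, n = 4) and 4.32. Of the ligands HBEGF and NRG1 were middling at 8.44 and 8.29, and EGF, BTC, EREG and EPGN were at 4.37, 4.60, 3.13 and 3.22. The adaptors SHC1 and GRB2 were at 11.46 and 9.47, the Ras exchange factors SOS1 and SOS2 at 8.91 and 8.97, and ERRFI1, an inhibitor of EGFR, at 11.15. In all, 8 of 19 members of this list were above the limit, or 42.1%, near the 43.3% of all protein-coding genes.

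ANXA6, the gene that the study lowered in its other lines, had 11.43, 11.42, 11.37 and 11.40 in BT-EV cells. It encodes a membrane-binding annexin with a duplicated core and ranked at the 98.8th percentile of all genes. Of 13 annexin genes 7 were above the silent range, or 53.8% against 43.3% of all protein-coding genes. ANXA1 at 12.37, ANXA5 at 12.09 ± 0.02 (SD, n = 4), ANXA4 at 9.65 and ANXA7 at 9.57 were among the high ones. ANXA2 was at 7.36 while its pseudogene ANXA2P2 was at 12.40, and probe signal from near-identical copies cannot be told apart, so both are uncertain. ANXA3, ANXA10 and ANXA13 were at 3.43, 3.66 and 4.61. Among 20 genes of the calcium-binding S100 family only S100A11 at 8.55 and S100A10, the partner of ANXA2, at 8.06 were above the limit.

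RASGRF2, a calcium-activated exchange factor for Ras that the study follows, had 5.09, 5.10, 4.68 and 4.85 and was within the silent range on every array. Its second transcript cluster was at 4.65, beside an ERCC level of 4.55 to 4.68. Its 4.93 placed it at the 27.2th percentile. The study detected RasGRF2 protein in BT-549 cells by western blot, and a place within the silent range does not mean that the transcript is absent. The related RASGRF1 was at 5.20, and the diacylglycerol-activated exchange factors RASGRP1, RASGRP2, RASGRP3 and RASGRP4 lay between 4.80 and 5.77. SOS1, SOS2 and RAPGEF1 were thus the exchange factors of the list above the limit. Among the GTPases RRAS was high at 11.83 ± 0.03 (SD, n = 4), and RALB, RALA, MRAS and HRAS were middling at 9.04, 8.79, 7.83 and 7.52. NF1 and RASAL2, which switch Ras off, were at 9.04 and 10.11.

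The MAP kinase cascade was above the silent range in 23 of 38 cases. ARAF was at 9.71, MAP2K1 at 9.42 and MAPK3, the kinase ERK1, at 9.17. Of the factors of this list that respond early to the cascade, JUN was at 10.34, JUNB at 10.24, EGR1 at 10.23, with a second transcript cluster at 5.53, and FOSL1 at 10.19. FOSB was borderline at 7.18 and FOS within the silent range at 6.97. The feedback phosphatases DUSP7 and DUSP1 were at 10.12 and 8.50, and DUSP4 and DUSP6 at 7.11 and 7.06. SPRY2 and SPRY4, further feedback inhibitors, were middling at 8.96 and 7.60.

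Genes of calcium entry and storage were above the limit in 11 of 17 cases. The store-operated channel genes ORAI1, ORAI2 and ORAI3 were middling at 8.61, 8.74 and 9.22, and their sensors STIM1 and STIM2 were at 7.82 and 7.28. MCU, the mitochondrial uniporter, was at 9.94 and the stretch channel PIEZO1 at 9.37, while PIEZO2 and the ryanodine receptors RYR1, RYR2 and RYR3 were at 4.15, 5.33, 6.09 and 4.40.

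The Hippo pathway and its targets were above the silent range in 21 of 27 cases, with a median of 8.26. The coactivator YAP1 had 9.65, 9.72, 9.65 and 9.73, its relative WWTR1 was at 7.87, and all 4 of their partners TEAD1, TEAD4, TEAD2 and TEAD3 were above the limit, at 9.87, 9.32, 8.99 and 7.90. The target genes AXL, CCN2 and CRIM1 were at 11.91, 11.36 and 11.20, where CCN2 had a second transcript cluster at 7.37 and YAP1 one at 5.90. ANKRD1, a target of the same coactivators, was at 5.37. NF2, which restrains the pathway, was at 10.01.

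The TGF beta and BMP list was above the limit in 18 of 33 cases, with SMAD4 at 10.20, SMAD2 at 9.55, SMAD3 at 5.90 and the inhibitors FST and BAMBI at 8.85 and 9.23. GDF15, a stress cytokine of this family, was at 10.47. In the Notch list 13 of 32 were above the limit, or 40.6%, near the 43.3% of all protein-coding genes. The receptors NOTCH2, NOTCH3 and NOTCH1 were at 10.62, 8.45 and 8.13. The ligands JAG1, JAG2, DLL1, DLL3 and DLL4 were all within the silent range, between 5.49 and 6.93. Of these JAG2, DLL1 and DLL3 changed band at the 90th percentile of the silent families, and JAG1 and DLL4 at the ERCC level. In the Wnt list 15 of 45 were above it, with GSK3B, which marks beta-catenin for decay, at 11.03, the secreted antagonists SFRP1 and DKK1 at 9.74 and 9.61 and the receptors FZD2 and FZD6 at 9.68 and 9.62. The feedback targets AXIN2, LEF1 and LGR5 were at 6.83, 5.97 and 4.14. In the Hedgehog list 5 of 15 were above it and none high, with GLI3 at 8.16 and GLI1, the target read out for pathway activity, at 6.26.

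JAK1 was at 11.42 ± 0.05 (SD, n = 4), STAT3 at 11.25 ± 0.03 and OSMR, the oncostatin M receptor, at 10.86, while the other measured cytokine kinases and STAT factors of the list, JAK2, JAK3, STAT4, STAT5A and STAT5B, were between 4.00 and 7.02 and TYK2 was middling at 8.13. The NF-kappaB list was above the limit in 11 of 12 cases, with RELA at 10.03, IRAK1 at 10.09 and NFKB1 at 8.85. Cytokines and chemokines were above it in 4 of 61 cases. CXCL5, a neutrophil attractant, had 9.87, 9.81, 9.81 and 9.91, CXCL16, CCL2 and CSF1 were middling at 8.18, 8.11 and 7.55, and 27 genes were at or under the ERCC level on all arrays, among them CXCL10 at 3.12. CXCL8 was at 6.66. Interferon-stimulated genes were above the limit in 9 of 28 cases, none of them high, with IFITM1 at 8.63 and IFIT1 at 5.48. In the list of growth control by AKT and mTOR 9 of 19 were above it, or 47.4%, near the 43.3% of all protein-coding genes. DDIT4, a stress-induced brake on mTOR, was at 10.77, EIF4EBP1 at 10.57 and MTOR at 9.55.

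Proliferation genes were above the silent range in 46 of 48 cases and high in 28, with a median of 9.85, against 6.84 for all protein-coding genes. After PLK1 came CDK4, the kinase of the G1 phase, with 11.72, 11.65, 11.78 and 11.62. CDC20, MYBL2 and CCNB2 were at 11.52, 11.51 and 11.41, and TOP2A, AURKB and CCNA2, genes of mitosis and DNA replication, at 11.12, 11.08 and 11.07. MKI67, the antigen used to count dividing cells, was at 10.93 ± 0.06 (SD, n = 4). The exceptions were HMGB2, borderline at 7.21, and PTTG1, or securin, within the silent range at 6.75.

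Of 30 tumor suppressor genes and oncogenes 22 were above the limit and 9 high. MYC had 9.79, 9.92, 9.81 and 9.97, CCND1 was at 9.92, E2F1 at 10.15 and CCNE1 at 9.07. CDKN2A, which encodes the CDK4 inhibitor p16, was middling at 7.90 ± 0.05 (SD, n = 4). RB1, the retinoblastoma gene, had 5.93, 6.18, 6.25 and 6.13 and was within the silent range on every array. CCND2, CHEK2, TERT, CCND3 and AKT1 were within it too, between 5.29 and 6.57. Of 13 cancer-testis antigen genes none was above the limit, with PRAME highest at 6.32. HOX genes were above it in 4 of 27 cases, HOXB2 at 8.47, HOXB9 at 8.07, HOXB3 at 7.76 and HOXC8 at 7.67.

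Housekeeping groups were mostly above the silent range without being uniformly high. Chaperone genes were above it in 13 of 14 cases and high in 11, with a median of 11.08, led by HSPB1, CALR, CANX at 12.39 and the mitochondrial HSPA9 at 11.78. Mitochondrial ribosomal protein genes were above it in 59 of 73 cases, splicing and nuclear ribonucleoprotein genes in 41 of 54, translation factors in 20 of 28 and cytosolic ribosomal protein genes in 39 of 53. The cytosolic ribosomal proteins are built into ribosomes in equal numbers, while their levels ran from 4.25 to 13.35, with RPL10, RPS28 and RPL41 at the head of all genes and RPL22 and RPS7 within the silent range at 6.40 and 5.93. The lowest, RPL10L, is a testis copy of RPL10. Respiratory chain genes were above it in 15 of 28 cases, and the tissue-restricted forms COX4I2, COX6A2, COX7A1, COX6B2, COX7B2 and COX8C were all within the silent range, between 3.19 and 5.55. In glycolysis GPI was at 12.05, PGK1 at 10.13 and HK2 at 9.70, while the muscle form PGAM2 and the testis form LDHC were at 6.17 and 2.88.

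Genes often used as references did not stand at the top of the ranking. GAPDH had 8.77, 8.73, 8.74 and 8.71, PPIA was at 9.16, HPRT1 at 9.77, TBP at 8.67 and B2M at 8.46. GAPDH and PPIA have 65 and 87 annotated pseudogenes, and EEF1A1 has 50. Whether probes shared with such copies lowered or raised their levels was not tested.

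**Figure D3:**
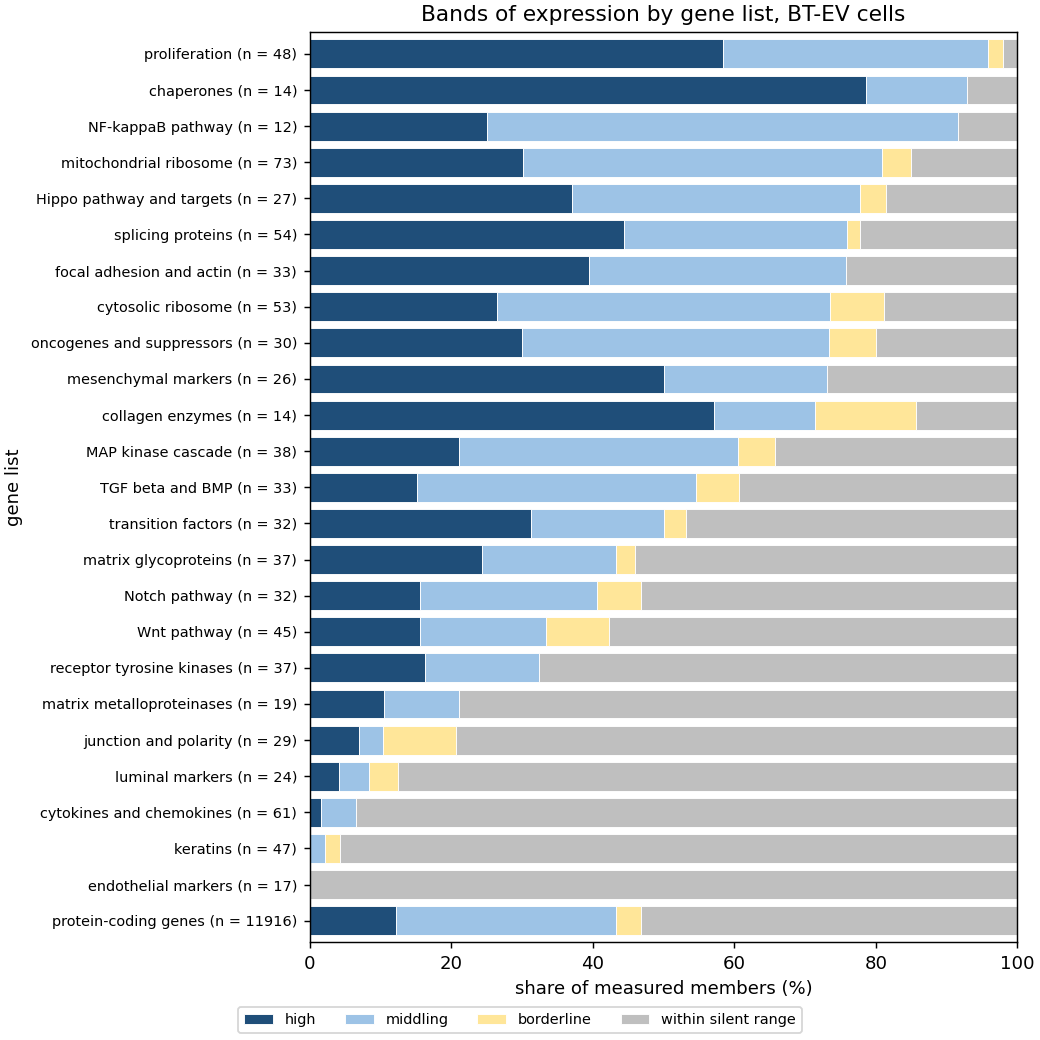
Share of the measured members of each gene list (x axis, percent; bars add to 100%) that were high, middling, borderline or within the silent range in BT-EV cells, with all 11916 protein-coding genes as the bottom bar. Proliferation genes and chaperones had 95.8% and 92.9% of their members above the silent range, luminal markers 8.33% and keratins 2.13%.

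Markers of other cell types were taken to see what else the cultures could hold, although a bulk array cannot tell fewer cells of a type from less RNA per cell. Of 143 such genes 8 were above the silent range, or 5.59%, against 43.3% of all protein-coding genes, and their median was 5.05. Endothelial, erythroid and platelet, muscle, hepatocyte and pancreas, and melanocyte and glial markers had none above it, out of 17, 6, 12, 17 and 14 genes. The defining genes PECAM1 of endothelium, CD163 of macrophages, CD2 of T cells and ALB of liver were at 4.30, 4.54, 5.07 and 3.81. The exceptions were CD68, a lysosomal protein of macrophages, whose arrays lay between 10.91 and 11.18, and NCAM1 and IL7R of the lymphocyte list at 8.91 and 8.05. MAP2 and SYN1 of the neuronal list were at 8.44 and 7.27, PPARG and PNPLA2 of the adipocyte list at 9.55 and 8.87, and ZP3 of the germ cell list at 7.54. The other markers of each of these cell types were within the silent range.

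Promoters of the genes were set beside their levels. RefSeq promoter sequences of GRCh38.p14, 250 bases before to 50 after the annotated start, were matched to 9707 of the 11916 protein-coding genes. Shown are those of 5 high genes and of 2 genes at the bottom of the ranking, because they span the range of base composition that went with level. They are written 5′ to 3′ in lower case, with capitals for GGGCGG on either strand (the GC box) and for TATAAA on the strand of the gene (the TATA box). The array's genome build is not given in the sources used here, and the positions are those of the promoter table.
TMSB10 promoter, chr2:84905406-84905705, plus strand: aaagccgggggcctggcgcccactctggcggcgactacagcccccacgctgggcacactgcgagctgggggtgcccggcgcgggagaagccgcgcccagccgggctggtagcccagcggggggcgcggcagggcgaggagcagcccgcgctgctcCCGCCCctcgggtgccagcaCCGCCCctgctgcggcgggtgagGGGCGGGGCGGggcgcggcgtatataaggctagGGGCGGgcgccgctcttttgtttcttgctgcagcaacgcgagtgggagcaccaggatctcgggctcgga
FN1 promoter, chr2:215436019-215436318, minus strand: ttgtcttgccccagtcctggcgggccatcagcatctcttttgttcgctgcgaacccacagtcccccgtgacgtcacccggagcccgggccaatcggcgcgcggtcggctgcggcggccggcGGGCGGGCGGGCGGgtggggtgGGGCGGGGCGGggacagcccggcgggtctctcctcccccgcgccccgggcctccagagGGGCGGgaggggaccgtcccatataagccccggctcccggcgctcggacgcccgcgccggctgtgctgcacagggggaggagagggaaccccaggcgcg
ANXA6 promoter, chr5:151157730-151158029, minus strand: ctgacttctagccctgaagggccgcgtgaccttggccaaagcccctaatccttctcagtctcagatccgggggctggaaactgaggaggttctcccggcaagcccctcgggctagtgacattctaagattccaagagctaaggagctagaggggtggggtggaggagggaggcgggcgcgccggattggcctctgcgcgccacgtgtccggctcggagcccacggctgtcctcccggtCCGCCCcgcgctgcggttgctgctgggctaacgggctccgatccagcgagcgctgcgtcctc
CCN2 promoter, chr6:131951323-131951622, minus strand: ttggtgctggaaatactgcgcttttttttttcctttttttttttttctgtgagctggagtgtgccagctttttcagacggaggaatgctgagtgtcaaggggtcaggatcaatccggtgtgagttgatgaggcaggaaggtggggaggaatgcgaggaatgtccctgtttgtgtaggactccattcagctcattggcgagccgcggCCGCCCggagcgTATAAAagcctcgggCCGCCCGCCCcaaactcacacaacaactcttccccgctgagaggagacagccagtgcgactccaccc
ANXA1 promoter, chr9:73151615-73151914, plus strand: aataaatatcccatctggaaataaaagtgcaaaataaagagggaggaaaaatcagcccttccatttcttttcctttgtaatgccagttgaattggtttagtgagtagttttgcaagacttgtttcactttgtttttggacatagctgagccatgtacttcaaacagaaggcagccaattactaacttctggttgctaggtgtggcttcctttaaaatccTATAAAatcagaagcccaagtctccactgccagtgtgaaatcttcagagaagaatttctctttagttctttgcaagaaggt
AGR3 promoter, chr7:16881934-16882233, minus strand: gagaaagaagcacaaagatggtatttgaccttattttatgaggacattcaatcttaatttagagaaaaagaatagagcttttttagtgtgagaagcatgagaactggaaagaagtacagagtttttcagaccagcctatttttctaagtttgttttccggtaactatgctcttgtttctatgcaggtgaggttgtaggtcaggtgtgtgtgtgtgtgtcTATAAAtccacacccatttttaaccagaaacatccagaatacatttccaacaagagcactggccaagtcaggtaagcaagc
MMP10 promoter, chr11:102780579-102780878, minus strand: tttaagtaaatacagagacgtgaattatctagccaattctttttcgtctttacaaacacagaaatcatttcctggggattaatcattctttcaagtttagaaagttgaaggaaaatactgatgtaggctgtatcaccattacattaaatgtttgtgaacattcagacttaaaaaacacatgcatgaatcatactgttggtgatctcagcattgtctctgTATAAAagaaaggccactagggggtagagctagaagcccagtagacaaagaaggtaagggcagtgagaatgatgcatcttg

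TMSB10 and FN1 had 35 and 38 CpG sites in these 300 bases, 5 and 6 GC boxes counted with overlaps, and no exact TATAAA. Only this exact motif was counted as a TATA box, here and in the shares below. TMSB10 and FN1 hold the related stretches tatataa and atataa, which were not counted. ANXA6 had 25 CpG sites and 1 GC box. CCN2 had 15 CpG sites, 3 GC boxes and a TATA box that begins 32 bases before the start. AGR3 and MMP10 had 1 and 2 CpG sites, no GC box and a TATA box at 31 bases. ANXA1 carried the same kind of promoter as these 2 genes, with 0 CpG sites and a TATA box at 31 bases, yet its level of 12.37 was high.

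Across the bands the median number of CpG sites per promoter was 28 in 1258 high genes and 28 in 3147 middling genes, against 17 in 4952 genes within the silent range and 23 in all 9707. A GC box was found in 74.8% of high and 74.7% of middling promoters, against 51.7% of those within the silent range and 62.9% of all. A TATA box anywhere in the window was found in 3.82% of high and 2.35% of middling promoters, against 9.09% of those within the silent range, and in 582 of the 9707 promoters. In all 27305 promoters of the table, noncoding genes included, the shares were 44.6% for the GC box and 7.71% for the TATA box. By deciles of the ranking the median was 6 CpG sites in the lowest decile and 25 in the fifth, and lay between 27 and 28 in all higher deciles. The TATA box share was 17.3% in the lowest decile, 3.81% in the fifth, 2.06% in the eighth and ninth and 4.12% in the highest. These are descriptions across genes, which are not independent, and a match is no evidence of a bound factor. Genes also differed in length by band, with a median genomic length of 30.2 kb for high and 33.2 kb for middling genes, against 22.4 kb for those within the silent range.

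**Figure D4:**
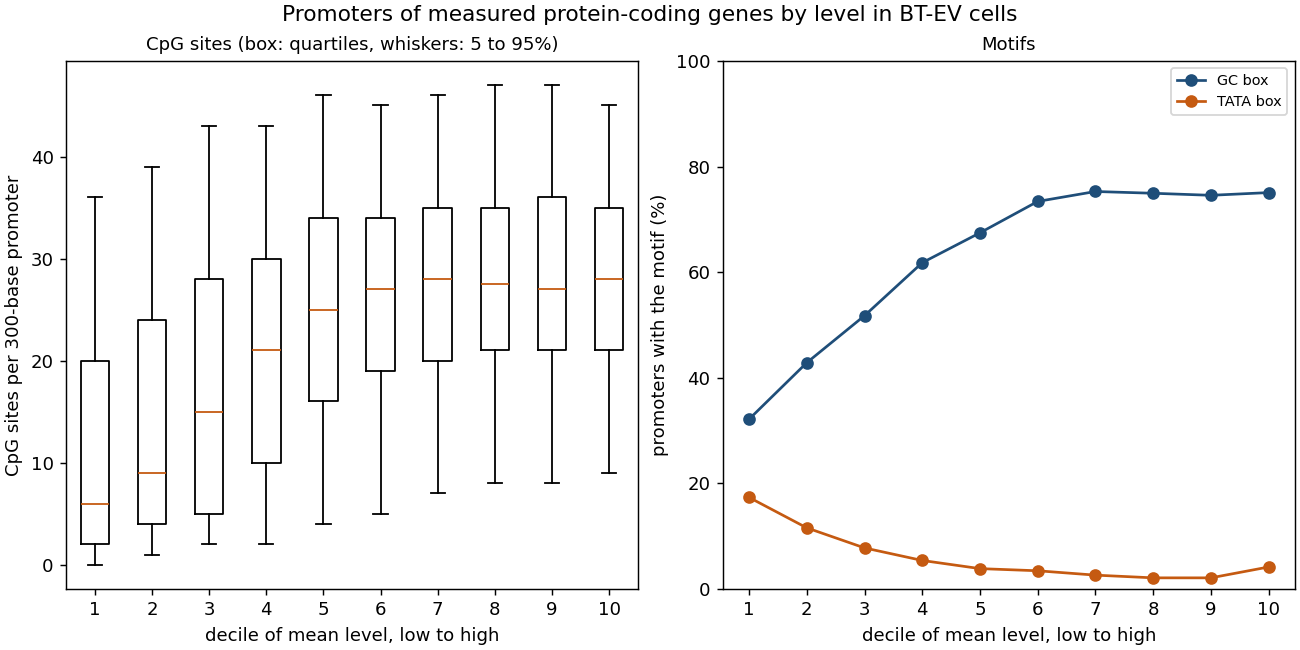
Left, CpG sites in each 300-base promoter (y axis; boxes are quartiles, whiskers the 5th and 95th percentiles) by decile of mean level in BT-EV cells (x axis, low to high, 970 or 971 promoters each). Right, share of the same promoters with a GC box or a TATA box (y axis, percent), where the GC box share climbs from 32.1% to about 75% and the TATA box share drops from 17.3%.

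MicroRNA precursor genes were above the silent range in 57 of 1072 cases, or 5.32%, and 625 of them were at or under the ERCC level on all arrays. All genes together gave 36.2%, and the silent families that set the limit gave 3.96%. The count of 57 is thus near what the limit leaves over in silent genes. The probes read the precursor or its host transcript and not the mature microRNA. Across 884 precursors with a RefSeq hairpin sequence their level went with the G+C content of the hairpin, with a Pearson r of 0.69 and a Spearman rho of 0.72, where all points share the same arrays. Median levels were 2.22 for hairpins of up to 40% G+C and 7.03 for those over 70%, and antigenomic probes of the same composition gave medians of 1.82 and 6.89. The 10 precursors of highest level were MIR4737 at 10.05, MIR3907, MIR27A, MIR2909, MIR1910, MIR4732, MIR574, MIR663B, MIR3159 and MIR4641 at 8.88. To set base composition aside, the antigenomic level at each hairpin's G+C was subtracted, a step chosen after the levels had been seen.

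By that difference MIR891A, MIR2909 and MIR3143 came first, at 6.37, 6.25 and 6.01. MIR2909 had a second transcript cluster at 4.99, which the choice of the highest one left out. The precursors described next were picked, after their values were seen, for their known roles in tumor cells and in the transition, and not for their rank. Their mature microRNAs are shown as RNA, 5′ to 3′, with the seed, bases 2 to 8, in capitals, because a shared seed joins the members into target families.
hsa-miR-221-3p: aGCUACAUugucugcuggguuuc
hsa-miR-222-3p: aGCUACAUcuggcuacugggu
hsa-miR-21-5p: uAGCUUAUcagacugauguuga
hsa-miR-23a-3p: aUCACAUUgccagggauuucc
hsa-miR-27a-3p: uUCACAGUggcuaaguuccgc
hsa-miR-24-3p: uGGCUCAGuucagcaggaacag
hsa-miR-424-5p: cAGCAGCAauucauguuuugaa
hsa-miR-503-5p: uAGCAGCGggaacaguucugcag
hsa-miR-200b-3p: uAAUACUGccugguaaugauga
hsa-miR-429: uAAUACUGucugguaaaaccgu
hsa-miR-200c-3p: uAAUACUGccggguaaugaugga
hsa-miR-141-3p: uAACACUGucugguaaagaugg

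MIR221 and MIR222 lie side by side on chromosome X, share the seed GCUACAU and target the estrogen receptor and cell cycle inhibitors. MIR221 had 8.42, 8.55, 8.38 and 8.49, which was 5.86 above the antigenomic level at its G+C content of 47.3%. MIR222 was borderline at 7.08 ± 0.15 (SD, n = 4), 3.97 above that level. MIR21, an oncogenic microRNA of many tumors, had 7.86, 7.90, 8.02 and 7.88, a difference of 5.14. The cluster of MIR23A, MIR27A and MIR24-2 on chromosome 19 was above the silent range in all 3 members, at 7.49, 9.58 and 8.71, with differences of 3.20, 4.78 and 4.92, of which that of MIR23A was below the 95th percentile of all precursors. The neighbors MIR424 and MIR503 on chromosome X, whose seeds AGCAGCA and AGCAGCG share their first 6 bases, were at 7.96 and 8.05, with differences of 4.84 and 3.46. For comparison, the median difference over all 884 precursors was 0.73 and the 95th percentile 3.45.

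The miR-200 family, with the seed AAUACUG in MIR200B, MIR429 and MIR200C and AACACUG in MIR141, was within the silent range. MIR200C had 3.61, 3.54, 2.54 and 3.27, with an SD of 0.49, and differed by -0.75 from the antigenomic level at its own composition. MIR141 was at 3.87 and MIR429 at 3.90, with differences of -0.10 and -0.45, and MIR200B was at 5.64 with a difference of 0.89. None of the 4 reached the 95th percentile of all precursors, which most precursors do not reach by definition. Of all 1072 precursors 993, or 92.6%, were within the silent range, so the family shares this placing with most of them. ZEB1, the target that this family holds down in epithelial cells, was middling at 7.65. Any link between these levels was not tested.

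**Figure D5:**
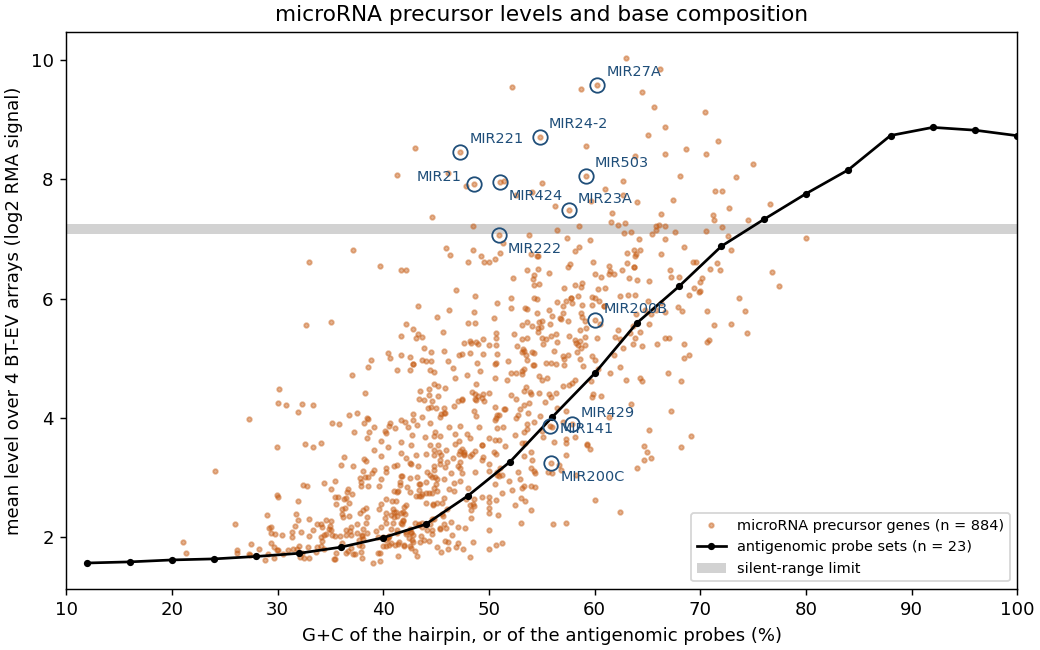
Mean level over the 4 BT-EV arrays (y axis, log2 RMA signal) of 884 microRNA precursor genes against the G+C content of their hairpins (x axis, percent), with 23 antigenomic probe sets as the black line. MIR221, MIR21, MIR27A, MIR24-2, MIR424 and MIR503 lie 3.46 to 5.86 above the line and MIR200C, MIR141 and MIR429 on or under it.

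Long noncoding RNA genes were above the silent range in 6.87% of 1398 cases, against 36.2% of all genes. Among the well-studied ones 14 of 27 were above it, with RMRP, the RNA of a mitochondrial RNA-processing enzyme, at 12.15, NORAD, which holds PUMILIO proteins, at 11.53 ± 0.07 (SD, n = 4), CYTOR at 11.47 and the nuclear MALAT1 at 11.36, whose other transcript clusters were at 9.15 and 7.61. TERC, the telomerase template RNA, was at 10.01 and the growth arrest transcript GAS5 at 8.92. HOTAIR, MEG3 and UCA1 were within the silent range at 4.86, 4.61 and 5.34. Of 458 genes named as long intergenic noncoding RNAs 20 were above it, or 4.37%, near the 3.96% of the silent families. The 10 highest ran from LINC00987 at 11.64 through LINC01347, LINC01000, LINC01061, LINC00999, LINC00933, LINC00630, LINC00265 and LINC00294 to LINC01963 at 8.22. LINC00987 had a second transcript cluster at 5.51, within the silent range. The lowest clusters of LINC01347, LINC01000, LINC01061, LINC00999, LINC00933 and LINC00265 had means of 6.18, 6.83, 6.25, 5.73, 4.89 and 5.45. These means also lay under the limit.

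The arrays agreed closely on genes above the silent range, with a median SD of 0.06 over 5388 genes, against 0.12 over the 9030 genes within it. The 10 most variable of the genes above it were PGAM1, SERF2, RPL39, SCARNA7, MIR4519, MIR3159, MIR564, SMAGP, ZFP82 and MED17, with SDs from 0.61 down to 0.21. PGAM1, a glycolytic mutase with 13 annotated pseudogenes, had 8.85 on the first array and 10.07, 9.95 and 10.18 on the others. Next to the band limits, PDHB and RSPRY1 were the last high genes and SEL1L and CD151 the first middling ones, all at 9.48. Of 779 genes with several transcript clusters, 226 had some on either side of the silent-range limit. Judged by the array that came nearest to its own limit, NEURL4 at 7.30 and MTIF3 at 7.24 were the genes that passed the silent range by the smallest margin, and KRTAP9-2 at 7.09 and HPCAL1 at 7.09 those that stayed within it by the smallest. KRTAP9-2 is itself one of the keratin-associated genes from which the limit was taken.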

How the data were processed

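Affymetrix Human Gene ST arrays of 4 BT-EV RNA samples were taken from the deposited value table. The authors made its log2 values with RMA in Affymetrix Expression Console 1.2, which corrects background, quantile-normalizes arrays and summarizes the probes of each transcript cluster, and the submitters' notes also name affy and limma. The genome build is not given in the sources used here. Of 53617 transcript clusters 16098 carried a single symbol, and all 16098 of their gene IDs matched RefSeq. For each gene the transcript cluster of highest mean was kept. Olfactory receptor genes were to give the limit, but only 1 such gene was named, so 101 genes of other silent families were used, at their 95th percentile on each array. No test between groups was made, and 4 arrays bound how precise a level is. Named genes were the first 30 of the ranking, list members, the 10 most variable genes above the silent range and those next to the limits. Genes and lists were chosen with earlier results of these data known. The microRNAs, promoters and examples of genes within the silent range were chosen after their values were seen. Band assignment was run on simulated data to check the code, and the placing of genes near the limit was not tested there. Alternatives were another transcript cluster per gene, other limits, centring, quantile normalization and leaving out each array. Python 3.11.15, pandas 2.3.3, numpy 2.4.6 and matplotlib 3.10.9 were used.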

Additional observations from a re-analysis of the deposited data

Results flagged for a closer look

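Of 411 named genes 18 had one array apart from the other 3, by a gap to the nearest array over the whole range that passed Dixon's critical value at the 95% level, or 4.38%, where chance gives about 5%. The widest of these gaps was 0.50 on the log2 scale, in MIR564. Replicate 1 stood apart in FN1 below the others at a ratio of 0.877, FZD6 above the others at a ratio of 0.897, IFIT1 above the others at a ratio of 0.974, MIR564 below the others at a ratio of 0.894, PRAME above the others at a ratio of 0.869, SPRY2 below the others at a ratio of 0.91, THBS1 below the others at a ratio of 0.831. Replicate 2 stood apart in CCNB2 below the others at a ratio of 0.88, HAS2 below the others at a ratio of 0.863, RMRP above the others at a ratio of 0.842, TCF3 above the others at a ratio of 0.857. Replicate 3 stood apart in DSC3 below the others at a ratio of 0.837, MALAT1 above the others at a ratio of 0.841, PXN above the others at a ratio of 0.888, TBP below the others at a ratio of 0.837. Replicate 4 stood apart in S100A6 below the others at a ratio of 0.892, SMAD3 above the others at a ratio of 0.885, TEAD3 above the others at a ratio of 0.874.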

How the results depend on the processing

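Centring the arrays on their medians or quantile-normalizing them again left 5388 genes above and 9030 within the silent range, and 0 genes went from above to within or back. Both settings keep the order of genes on an array, and the limit moves with them. They therefore could not change these counts and do not test them. The counts depended on the limit. With the 99th percentile of the silent families 2244 genes were above it, 755 were middling, and the median promoter of high genes had 6 more CpG sites than that of genes within the range. With the 90th percentile 6833 were above, 7268 within, and that difference was 16. With the ERCC level, an alternative chosen after seeing the data like both percentiles, 11110 were above, 2972 within and 9621 middling, with a difference of 22. Leaving out each array gave 5397 to 5504 genes above, 9034 to 9154 within, 3908 to 4015 middling and a difference of 11 to 11. The counts above and within rose because fewer arrays had to lie on the same side of the limit. With the transcript cluster of lowest mean 5163 genes were above, and 27 of the named genes changed band, among them SCD, COX6A1, CCN2, YAP1, EGR1 and MALAT1. ZEB1, KRT80, CDKN2A, MIR221 and MIR21 were among 90 named genes whose band changed at the 99th percentile, and ZEB2, TAGLN and TWIST1 among 38 at the 90th. Limits from 90th and 99th percentiles of olfactory receptor genes were not run because 1 such gene was named. No paired analysis was possible because the arrays form 1 group. Depth does not apply to arrays, and genes near the limit are placed by probe signal alone.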

Other observations

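Transcript clusters with no symbol or more than 1 were left out of the ranking. Of 37329 such clusters, control sets aside, 5136 were above the silent range on all 4 arrays, or 13.8%. Of these, 1856 were above the limit of high genes. Their median was 4.53 and the highest was at 14.29, above the 13.48 of TMSB10. Among the ERCC sets 1 was above the silent range, with a mean of 7.79, and the next was at 6.70.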
